A study of Mus musculus with 4 samples.

Results

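The 34 genes described here encode proteins that copy the genome in S phase or prepare for it: Mcm2, Mcm3, Mcm4, Mcm5, Mcm6 and Mcm7 of the replicative helicase; Cdc6, Cdt1, Gmnn, Gins2 and Cdc45, which load, restrain or activate it; Rrm1, Rrm2, Tyms, Dtymk, Tk1 and Dut of nucleotide supply; Pcna, Pclaf, Rfc2, Rfc4, Prim1, Pola1, Pold3, Rpa2, Fen1 and Lig1 of the replication fork; Uhrf1, Hells, Slbp and Ung, which serve chromatin and repair; and Ccne1, Ccne2 and E2f1 of G1-S control. They were chosen by name, and all 34 were among the 32285 gene rows of the matrices. Cells came from mouse lung, were depleted of CD45-positive blood cells and selected for CD31, a surface protein of endothelium, and were profiled by droplet single-cell RNA sequencing. The 4 libraries, 1 per group, came from wild-type mice that had a sham operation (sham) and, 7 days after PNX, from wild-type mice (WT PNX) and from 2 conditional knockout lines (M3cKO PNX, Foxo1cKO PNX). PNX usually stands for pneumonectomy, the removal of part of the lung, after which the remaining lung grows. The age and strain of the mice, the Cre driver of either knockout, the gene meant by M3 and how many animals a library pooled are unstated in the sources used here. With 1 library per group no spread between animals could be measured and no test was possible, so every interval below is a 95% interval that covers counting error only, and a difference between groups cannot be told apart from a difference between libraries.

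DNA replication is prepared in G1, when the origin recognition complex, CDC6 and CDT1 place the ring-shaped MCM2-7 helicase on DNA. In S phase CDC45 and the GINS complex turn the ring into an active helicase, primase starts each strand, and the sliding clamp PCNA, set on DNA by the replication factor C complex, holds the polymerases in place. Transcription factors of the E2F family, freed when cyclin-dependent kinases phosphorylate the retinoblastoma protein, switch on most of these genes before S phase. The endothelium of the resting adult lung divides rarely, and capillary endothelial cells re-enter the cell cycle during the growth that follows pneumonectomy in mice.

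Promoter windows are shown first because the genes were chosen by name and not by their promoter letters. Since E2F factors are known to switch on most of these genes, a high share of E2F-type letters is no independent result. RefSeq's promoter table (GRCm38.p6) held a window of 250 bases before to 50 bases after the start for 29 of the 34 genes. The letters TTTCCCGC, TTTGGCGC, TTTCGCGC or TTTGCCGC, searched on both strands with overlapping matches kept, stood in the windows of 12 of them (41.4%), namely Cdc6, Cdt1, Hells, Lig1, Mcm3, Mcm5, Mcm6, Mcm7, Pclaf, Pola1, Pold3 and Uhrf1. Over all genes with a window the share was 2.605% (704 of 27025), and over the list of other replication genes described below it was 37.04%. The CHR letters TTTGAA or TTCGAA, known from genes of G2 and M phase, were found in 13.8% of the replication genes, 21.7% of all genes and 62.5% of the 8 G2 and M phase genes with a window. CCAAT stood in 55.2% of the replication genes and 41.1% of all genes. The 250 bases before the start are given below for Mcm5, Mcm6 and Hells, whose windows hold such matches, and for Rrm2, whose window holds none, all 4 of them genes that the comparisons turn on; capitals mark the E2F-type matches. A match is a description of letters and not a shown binding site.
Mcm5, chr8:75109259-75109508, plus strand: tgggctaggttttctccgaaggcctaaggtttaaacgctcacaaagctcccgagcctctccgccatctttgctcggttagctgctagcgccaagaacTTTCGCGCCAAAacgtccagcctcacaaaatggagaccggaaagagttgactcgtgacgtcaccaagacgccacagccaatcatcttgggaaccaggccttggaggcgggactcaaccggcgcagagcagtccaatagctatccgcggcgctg
Mcm6, chr1:128359706-128359955, minus strand: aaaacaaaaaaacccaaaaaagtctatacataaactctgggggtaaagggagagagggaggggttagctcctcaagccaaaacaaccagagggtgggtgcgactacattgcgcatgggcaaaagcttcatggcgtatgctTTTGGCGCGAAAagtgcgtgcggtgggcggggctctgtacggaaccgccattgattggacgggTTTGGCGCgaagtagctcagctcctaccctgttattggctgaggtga
Hells, chr19:38930740-38930989, plus strand: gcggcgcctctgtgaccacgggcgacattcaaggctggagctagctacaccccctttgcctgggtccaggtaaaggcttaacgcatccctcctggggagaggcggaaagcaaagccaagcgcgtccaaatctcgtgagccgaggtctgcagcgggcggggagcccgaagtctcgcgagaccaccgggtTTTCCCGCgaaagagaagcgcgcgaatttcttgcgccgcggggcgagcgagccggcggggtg
Rrm2, chr12:24708004-24708253, plus strand: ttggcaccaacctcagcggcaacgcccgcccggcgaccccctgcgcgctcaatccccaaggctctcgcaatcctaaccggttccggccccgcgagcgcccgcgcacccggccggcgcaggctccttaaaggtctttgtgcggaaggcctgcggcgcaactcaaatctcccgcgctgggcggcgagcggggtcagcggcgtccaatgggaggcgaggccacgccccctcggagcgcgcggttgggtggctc

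In the Mcm5 window the matches began 153 and 149 bases before the start and overlapped. In that of Mcm6 they began 110, 106 and 47 bases before it, the first pair overlapping, and in that of Hells the match began 62 bases before it.

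Cells counted as endothelial had at least 500 genes, at most 10% mitochondrial UMIs (unique molecular identifiers, each 1 captured transcript), at least 2 UMIs over Pecam1, Cdh5, Cldn5, Egfl7, Ramp2 and Tie1, and none of Ptprc, Epcam, Col1a1 and Col1a2. This left 3887 cells in WT PNX, 3811 in Foxo1cKO PNX, 2491 in M3cKO PNX and 4665 in sham, of 7617 to 9266 barcodes a library. Their UMIs summed to 6492399 to 13691550, with medians per cell of 2640 in WT PNX, 2474 in Foxo1cKO PNX, 2070.0 in M3cKO PNX and 1841 in sham. Levels are CPM, a gene's UMIs per 1000000 endothelial UMIs of a library, and not per transcript length. The targeted gene Foxo1 was at 208 CPM in WT PNX, 70.1 in Foxo1cKO PNX, 185 in M3cKO PNX and 196 in sham; the target of M3cKO was not checked. Pecam1 was at 2856 to 3353 CPM and Cdh5 at 2121 to 2515 over the libraries. Cldn5, the gate gene that differed most, was at 824 CPM in WT PNX, 767 in Foxo1cKO PNX, 1086 in M3cKO PNX and 1717 in sham. Any pair of libraries shared 68 to 111 barcodes. WT PNX and Foxo1cKO PNX held cells with Xist and cells with Y-linked transcripts, and sham and M3cKO PNX held no cell with Xist UMIs.

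In WT PNX the replication genes were higher than in sham nearly throughout. Their summed level was 1522 CPM in WT PNX, 1206 in Foxo1cKO PNX, 899.5 in M3cKO PNX and 533 in sham, and thus 2.86-fold (2.77 to 2.94) higher in WT PNX than in sham. A gene counted as measured if it reached 10 CPM in at least 1 of the libraries compared, and as higher or lower from a ratio of 1.5. By this rule 28 of 29 measured genes were higher in WT PNX and 0 lower, where 11.3% of all 9132 measured genes were higher and 6.98% lower. The rule asks for 10 CPM in only 1 library, so a gene under that level in sham entered only through WT PNX. This was so for Cdt1, Gmnn, Cdc45, Rrm2, Tk1, Pclaf, Rfc4, Pola1, Uhrf1, Hells and Ccne2, and it favours a call of higher. The shares of all genes and the comparisons below follow the same rule. The median log2 ratio was 1.61 over the replication genes and 0.05 over all genes. Rfc2 stayed within 1.5-fold, and Cdc6, Gins2, Ung, Ccne1 and E2f1 were under 10 CPM in both libraries. Mcm7, Gins2, Cdc45, Tk1, Pclaf, Rfc2, Rfc4, Fen1, Lig1 and Ccne2 overlap a gene on the opposite strand, and whether counting used the strand is not given in the sources used here. WT PNX had the highest level of 33 of the 34 genes, all but Ung, and sham the lowest of 32, all but Rfc2 and Rfc4. Of all 9372 genes that reached 10 CPM in any library, 2605 were highest in WT PNX and 2683 lowest in sham. The 34 genes were not held to that minimum in these counts of order. The order sham, M3cKO PNX, Foxo1cKO PNX, WT PNX from low to high held for 29 genes (85.3%), all but Rfc2, Rfc4, Pold3, Ung and Ccne1, and for 9.51% of all genes that reached 10 CPM in any library.

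The 6 helicase subunits form 1 ring and all 6 were higher in WT PNX than in sham. Summed, they were at 358 CPM in WT PNX, 316 in Foxo1cKO PNX, 199 in M3cKO PNX and 129 in sham, and the ratio of WT PNX to sham was 2.79-fold (2.62 to 2.96). Mcm6 (ENSMUSG00000026355, chr1:128331590-128359664, minus strand) was at 86.5 CPM in WT PNX, 74.5 in Foxo1cKO PNX, 50.8 in M3cKO PNX and 33.4 in sham. Mcm3 was at 84.4 CPM in WT PNX, 74.8 in Foxo1cKO PNX, 53.8 in M3cKO PNX and 37.7 in sham. Both were lowest in sham and highest in WT PNX, by 2.59-fold (2.29 to 2.92) and 2.24-fold (1.99 to 2.51). Mcm5 was at 58.6 CPM in WT PNX, 54.4 in Foxo1cKO PNX, 31.6 in M3cKO PNX and 12.4 in sham, and its ratio of 4.73-fold (3.93 to 5.74) was the largest of the 6. Mcm2, Mcm7 and Mcm4 were 3.06-fold (2.56 to 3.67), 2.74-fold (2.31 to 3.27) and 2.79-fold (2.32 to 3.37) higher in WT PNX than in sham.

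Among the genes that load and activate the helicase, Cdt1 (ENSMUSG00000006585, chr8:122568015-122573554, plus strand), which brings the ring to origins, was at 28.3 CPM in WT PNX, 22.8 in Foxo1cKO PNX, 13.9 in M3cKO PNX and 4.86 in sham. Gmnn, whose product geminin blocks CDT1 once S phase has begun, was at 17.7 CPM in WT PNX, 14.3 in Foxo1cKO PNX, 5.699 in M3cKO PNX and 4.48 in sham. Cdc45, part of the active helicase, was at 15.6 CPM in WT PNX, 8.67 in Foxo1cKO PNX, 7.39 in M3cKO PNX and 3.14 in sham. All 3 were higher in WT PNX than in sham, by 5.83-fold (4.35 to 7.97), 3.95-fold (2.88 to 5.52) and 4.95-fold (3.42 to 7.37). Cdc6, the loading factor, had 1 UMI in sham and 125 in WT PNX (0.0953 CPM in sham and 9.13 in WT PNX), 95.8-fold (16.9 to 3814) apart. Gins2, a GINS subunit, was at 1.91 CPM in sham and 9.93 in WT PNX. The 5 genes together were at 80.6 CPM in WT PNX, 59.9 in Foxo1cKO PNX, 34.04 in M3cKO PNX and 14.5 in sham.

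Nucleotide supply showed a wide range of ratios. Rrm2 (ENSMUSG00000020649, chr12:24708241-24714146, plus strand), the small subunit of ribonucleotide reductase, which makes deoxynucleotides and is limiting for the enzyme, was at 90.1 CPM in WT PNX, 43.4 in Foxo1cKO PNX, 36.04 in M3cKO PNX and 8.67 in sham, 10.4-fold (8.395 to 13.01) higher in WT PNX than in sham. Rrm1, the large subunit of the same enzyme, was at 54.1 CPM in WT PNX, 42.7 in Foxo1cKO PNX, 35.3 in M3cKO PNX and 25.9 in sham, and Dtymk, which phosphorylates thymidine monophosphate, at 53.3 CPM in WT PNX, 50.7 in Foxo1cKO PNX, 31.4 in M3cKO PNX and 25.8 in sham. These were 2.09-fold (1.81 to 2.41) and 2.06-fold (1.79 to 2.38) higher in WT PNX than in sham. Tk1, the thymidine kinase of dividing cells, was 18.2-fold (10.9 to 32.9) higher, Dut, which removes dUTP, 3.61-fold (3.01 to 4.35), and Tyms, thymidylate synthase, 3.42-fold (2.85 to 4.14). The 6 genes summed to 319.5 CPM in WT PNX, 231 in Foxo1cKO PNX, 164 in M3cKO PNX and 89.1 in sham.

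At the fork, Pcna (ENSMUSG00000027342, chr2:132249162-132253314, minus strand), the sliding clamp, had the most UMIs of the 34 genes. It was at 333 CPM in WT PNX, 253 in Foxo1cKO PNX, 234 in M3cKO PNX and 148 in sham, 2.25-fold (2.13 to 2.39) higher in WT PNX than in sham. Lig1, which joins Okazaki fragments, was at 49.5 CPM in WT PNX, 43.6 in Foxo1cKO PNX, 29.9 in M3cKO PNX and 15.1 in sham. The ratio of WT PNX to sham was 3.29-fold (2.76 to 3.94). Rfc2, a subunit of the clamp loader, was at 35.1 CPM in WT PNX, 34.7 in Foxo1cKO PNX, 29.6 in M3cKO PNX and 30.02 in sham, and its ratio was 1.17-fold (1.01 to 1.35). Rfc4, another subunit of that loader, was at 3.43 CPM in sham and 10.3 in WT PNX, 3.002-fold (2.07 to 4.46) apart. Pclaf, which binds PCNA, had the largest ratio of the 29 measured genes, 28.5-fold (18.1 to 47.6), with 1.81 CPM in sham and 51.6 in WT PNX. The primase and polymerase genes Prim1, Pola1 and Pold3 were 2.58-fold (2.07 to 3.24), 3.45-fold (2.56 to 4.72) and 1.57-fold (1.34 to 1.84) higher. Rpa2, which coats single-stranded DNA, and Fen1, a flap nuclease, were 1.55-fold (1.27 to 1.90) and 2.57-fold (2.099 to 3.17) higher. Summed, the 10 fork genes were at 610.5 CPM in WT PNX, 475 in Foxo1cKO PNX, 415 in M3cKO PNX and 262 in sham.

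Of the genes tied to chromatin and repair, Slbp (ENSMUSG00000004642, chr5:33634952-33652574, minus strand), whose product binds histone mRNA, was at 67.6 CPM in WT PNX, 55.7 in Foxo1cKO PNX, 54.7 in M3cKO PNX and 32.6 in sham. Uhrf1, which recruits the maintenance methyltransferase DNMT1 to newly copied DNA, was at 23.4 CPM in WT PNX, 22.8 in Foxo1cKO PNX, 11.1 in M3cKO PNX and 2.001 in sham, and Hells, a chromatin remodeller, at 23.2 CPM in WT PNX, 16.3 in Foxo1cKO PNX, 6.47 in M3cKO PNX and 1.52 in sham. In WT PNX against sham these were 2.08-fold (1.83 to 2.36), 11.7-fold (7.51 to 19.1) and 15.2-fold (9.24 to 26.98) higher. Ung, a uracil glycosylase, was at 6.65 CPM in WT PNX, 9.48 in Foxo1cKO PNX, 2.77 in M3cKO PNX and 0.858 in sham and was the only gene of the 34 with its highest level in Foxo1cKO PNX. For G1-S control, Ccne2 (ENSMUSG00000028212, chr4:11191351-11204779, plus strand), a cyclin E, was at 18.5 CPM in WT PNX, 9.48 in Foxo1cKO PNX, 5.08 in M3cKO PNX and 0.953 in sham, 19.4-fold (10.4 to 40.9) higher in WT PNX than in sham. E2f1 was at 9.35 CPM in WT PNX, 6.64 in Foxo1cKO PNX, 4.47 in M3cKO PNX and 1.14 in sham. Ccne1, the other cyclin E, had 0 UMIs in sham, where 3 UMIs would be 0.286 CPM, and was at 4.38 CPM in WT PNX, 3.32 in Foxo1cKO PNX and 3.39 in M3cKO PNX.

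**Figure D1:**
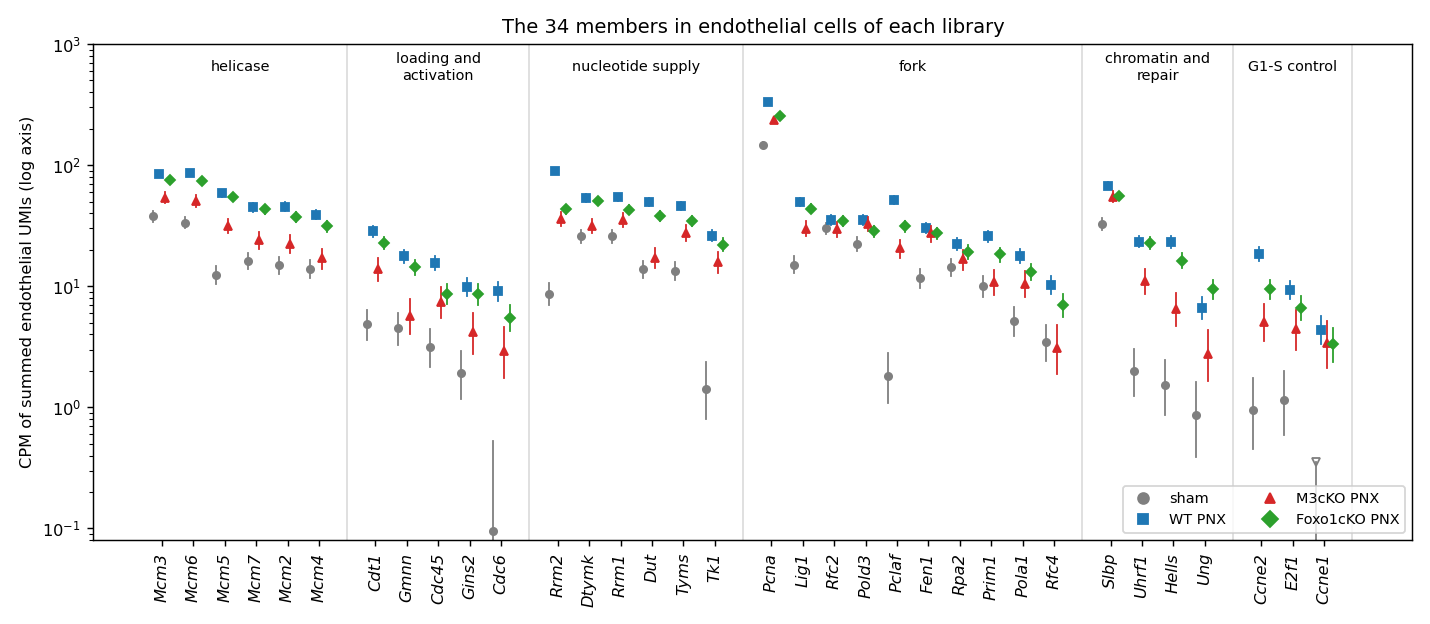
CPM of each of the 34 genes (x axis, by role, ordered by total UMIs) in the 4 libraries on a log axis; points are levels in endothelial cells and lines are exact Poisson 95% intervals, with an open triangle at the upper bound for a count of 0. Sham (grey) has the lowest point for 32 genes and WT PNX (blue squares) the highest for 33.

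Other replication genes, a list of 69 that holds none of the 34, were also higher in WT PNX but by less. Of 46 measured, 29 were at least 1.5-fold higher and 0 lower (11.3% and 6.98% of all genes), with a median log2 ratio of 0.83. The called ones with most UMIs were Usp1, a deubiquitinase that acts on PCNA, at 1.75-fold, Dnmt1, the maintenance methyltransferase, at 1.596-fold, the histone chaperone gene Nasp at 1.71-fold, Cdk2, the kinase partner of cyclin E, at 1.81-fold, Topbp1 at 2.16-fold and Pole4, of polymerase epsilon, at 1.93-fold. The 10 genes of G2 and M phase (Ccna2, Ccnb1, Cdk1, Mki67, Top2a, Cenpf, Tpx2, Ube2c, Birc5 and Nusap1) summed to 1108 CPM in WT PNX, 689 in Foxo1cKO PNX, 470.1 in M3cKO PNX and 80.4 in sham, a ratio of 13.8-fold (12.9 to 14.8) in WT PNX against sham.

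Markers of other cells, and those of lymphatic endothelium, also differed between these endothelial sums. The 6 B cell markers, none at 0 in all libraries, summed to 162 CPM in WT PNX, 136 in Foxo1cKO PNX, 83.5 in M3cKO PNX and 44.98 in sham, and the 4 platelet markers to 439, 372, 433 and 38.9 CPM in that order. Alveolar type 2 markers summed to 585, 171, 132 and 249 CPM, plasma cell markers to 326, 256, 1546 and 346 CPM, T cell markers to 58.1, 84.5, 139.7 and 29.1 CPM and lymphatic markers to 1859, 1442, 3800.4 and 3326 CPM, listed likewise. Whether RNA of any of these cell types has a part in the result was not tested. Cells of clusters led by genes of other cell types were 9.802%, 6.87%, 6.02% and 3.28% of the cells, again from WT PNX to sham. Without them, a choice made after seeing the data, 29 of 30 measured genes were higher in WT PNX than in sham, as were 10.9% of all genes.

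The summed level rises both with the number of cells that express these genes and with the level in each, so cells were counted by how many UMIs of the 34 genes they held. At 2 or more UMIs the shares were 55.3% (2149 of 3887, interval 53.7 to 56.9) of cells in WT PNX, 48.7% (1856 of 3811, interval 47.1 to 50.3) in Foxo1cKO PNX, 37.9% (943 of 2491, interval 35.9 to 39.8) in M3cKO PNX and 28.1% (1309 of 4665, interval 26.8 to 29.4) in sham. At 8 or more they were 14.0% in WT PNX, 10.1% in Foxo1cKO PNX, 4.295% in M3cKO PNX and 0.836% in sham, and at 16 or more 8.18% in WT PNX, 5.51% in Foxo1cKO PNX, 2.37% in M3cKO PNX and 0.257% in sham. The libraries kept the order WT PNX, Foxo1cKO PNX, M3cKO PNX, sham at each of the 5 thresholds drawn (1, 2, 4, 8 and 16 UMIs), and the ratio of WT PNX to sham was wider at 16 than at 1. Thinned to 2000 UMIs a cell, which left out 1147, 1275, 1197 and 2654 shallower cells in the libraries in that order, the shares at 2 or more were 45.7% in WT PNX, 39.2% in Foxo1cKO PNX, 36.6% in M3cKO PNX and 25.9% in sham, and the same order held at 4 or more: 19.6% in WT PNX, 15.2% in Foxo1cKO PNX, 10.9% in M3cKO PNX and 3.38% in sham. As a rough level for free RNA, cells of the blood cluster with neutrophil markers were counted, a type that no longer divides once mature. They reached 2 UMIs in 2.13% of 47 cells in WT PNX, 13.3% of 166 cells in M3cKO PNX and 4.17% of 48 cells in Foxo1cKO PNX. Their median depths were 1433, 1718 and 1389.5 UMIs. In M3cKO PNX 3 of them held 2 or more G2 and M phase UMIs, so its share may include dividing cells. B cell-like blood cells, a type that can divide, reached 2 UMIs in 55.9% of 338 cells (interval 50.4 to 61.3) in WT PNX. Their share was 57.99% of 369 (52.8 to 63.1) in Foxo1cKO PNX, 68.6% of 137 (60.1 to 76.3) in M3cKO PNX and 35.1% of 37 (20.2 to 52.5) in sham. Each value was above the endothelial share of its library, but in WT PNX and sham the interval spans that share.

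For single genes, a Pcna UMI was found in 44.7% of cells in WT PNX, 37.7% in Foxo1cKO PNX, 33.9% in M3cKO PNX and 25.3% in sham, and in 12.7% of the 166 M3cKO PNX neutrophils. A Mcm6 UMI was found in 17.9% of cells in WT PNX, 15.8% in Foxo1cKO PNX, 9.55% in M3cKO PNX and 6.73% in sham (1.205% of those neutrophils), and a Rrm2 UMI in 7.05% of cells in WT PNX, 4.07% in Foxo1cKO PNX, 2.73% in M3cKO PNX and 0.665% in sham (1.205%). Rrm2 thus lay in few cells with many UMIs each: up to 24 in 1 cell of WT PNX, where the cell with most Mcm6 UMIs had 15.

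**Figure D2:**
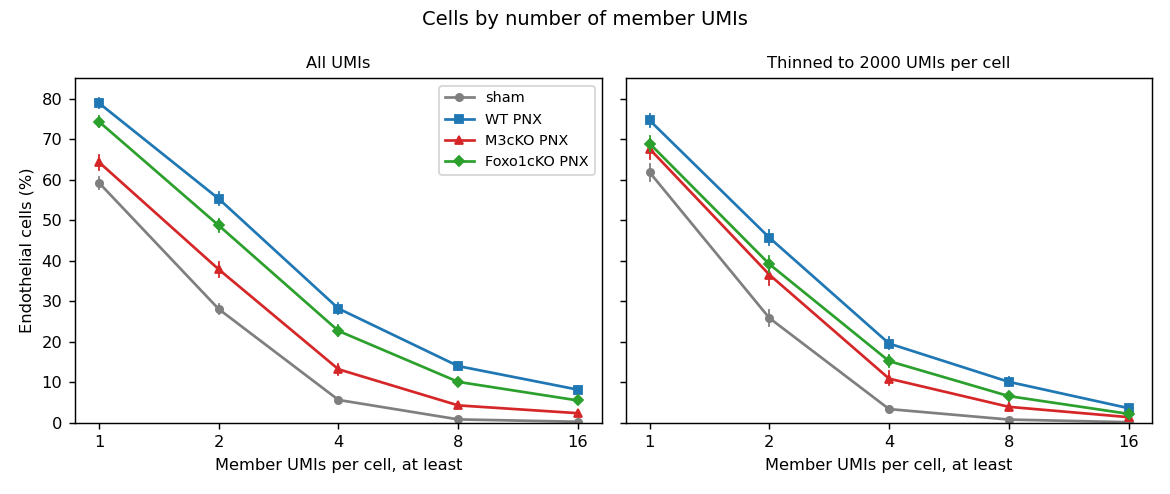
Percentage of endothelial cells (y axis) with at least 1, 2, 4, 8 or 16 UMIs of the 34 genes (x axis, each step a doubling) in the 4 libraries, with all UMIs (left) and after thinning to 2000 UMIs a cell (right); lines at the points are exact binomial 95% intervals. WT PNX lies highest and sham lowest at every threshold in both panels, 28.2% against 5.64% at 4 or more UMIs on the left.

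Cells were then split by the 10 G2 and M phase genes, which are not among the 34. Cells with 2 or more UMIs of them, called cycling below, were 458 of 3887 (11.8%) endothelial cells in WT PNX, 292 of 3811 (7.66%) in Foxo1cKO PNX, 110 of 2491 (4.42%) in M3cKO PNX and 29 of 4665 (0.622%) in sham. In cycling cells the 34 genes summed to 3989, 3679, 3528 and 4661 CPM in the same order, and in cells with 0 of those UMIs to 815, 743, 612 and 489.9 CPM. The level in cycling cells was thus highest in sham, while their number ran from 29 in sham to 458 in WT PNX, and among cells without these UMIs WT PNX had the highest level. In cells with 0 G2 and M phase UMIs, 12 of 20 measured genes stood above sham in WT PNX and 0 below (8.34% and 6.1% of all genes): Mcm2, Mcm3, Mcm4, Mcm5, Mcm6, Mcm7, Cdt1, Dtymk, Dut, Prim1, Lig1 and Hells. These include all 6 helicase subunits. The ratio of the sums in those cells was 1.66-fold (1.605 to 1.72). Within cycling cells 5 of 34 genes stood above sham in WT PNX and 11 below (21.4% and 22.7% of all genes), with only 29 such cells in sham.

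The genes differed in how far their UMIs were confined to cycling cells. In WT PNX, 95.9% of Rrm2 UMIs, 93.1% of Pclaf UMIs, 87.7% of Tk1 UMIs and 86.7% of Ccne1 UMIs lay in cycling cells, against 37.9% of Mcm3 UMIs and 28.3% of Rfc2 UMIs. The median over the 34 genes was 53.3%, and Rrm2 and Rfc2 were the highest and the lowest. In sham, where 29 cells were cycling, 83.5% of Rrm2 UMIs and 93.3% of Tk1 UMIs came from them, against 4.13% of Pcna UMIs and 3.42% of Mcm6 UMIs. The reverse also held in part: of cells with 4 or more UMIs of the 34 genes, 56.4% in WT PNX, 64.1% in Foxo1cKO PNX, 66.3% in M3cKO PNX and 87.8% in sham held no G2 and M phase UMI (50.2%, 57.5%, 60.3% and 75.0% after thinning to 2000 UMIs).

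**Figure D3:**
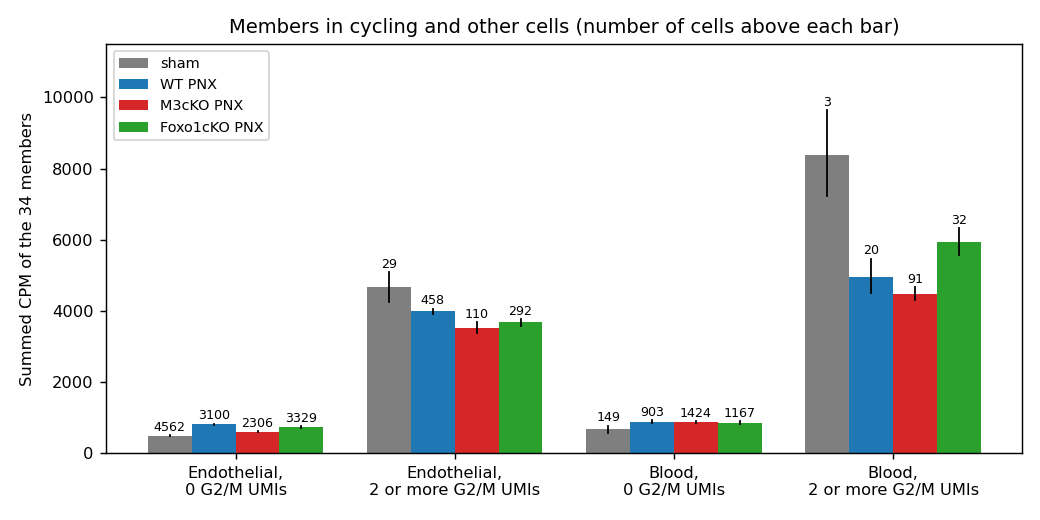
Summed CPM of the 34 genes (y axis) in endothelial and blood cells with 0, or with 2 or more, UMIs of the 10 G2 and M phase genes, for each library; lines are exact Poisson 95% intervals and the number above each bar is its number of cells. Every bar of cells with 2 or more such UMIs stands above every bar of cells with 0.

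Across WT PNX cells ordered by their share of G2 and M phase UMIs, the replication genes did not share 1 profile. Bands were set at 0, above 0 to 10, above 10 to 50 and above 50 such UMIs per 10000 UMIs of the cell, with 3100, 446, 141 and 200 cells. Of the 34 genes 23 were highest in the band above 10 to 50, 10 (Gmnn, Cdc45, Rrm1, Rrm2, Dtymk, Tk1, Pclaf, Pold3, Fen1 and Slbp) in the band above 50, and Ung in the band above 0 to 10. Pcna was at 210.2 CPM in cells with none of these UMIs, 486 in the lowest band, 1024 in the middle band and 559 in the highest band. Ccne2 was at 4.004, 27.5, 103 and 59.6 CPM in the same order, Cdt1 at 15.9, 48.6, 84.5 and 52.2 CPM, and Mcm6 at 59.6, 147, 185 and 123 CPM. These 4 peaked in the middle band and were lower in cells with most G2 and M phase UMIs. Rrm2 was at 4.32, 18.3, 421 and 668 CPM, Rrm1 at 24.02, 49.01, 153 and 233 CPM, Tk1 at 2.85, 19.7, 98.4 and 171 CPM and Gmnn at 8.75, 16.5, 50.5 and 67.7 CPM, each highest in the last band. The intervals of the last 2 bands did not overlap for Pcna, Ccne2, Mcm6, Rrm2, Rrm1 and Tk1 but did for Cdt1 and Gmnn. The genes were placed by these same levels and UMIs of 1 cell are not independent, so this is no test of the profiles. No share over all genes is given beside the counts of 23 and 10. The split between 10 to 50 and above 50 was 29 and 4 genes in M3cKO PNX, and in Foxo1cKO PNX it was 17 and 16, from bands of 40 to 117 cells. In sham it was 8 and 24, from 9 and 17 cells. Rrm2, Rrm1, Tk1 and Gmnn were highest in the last band in sham and Foxo1cKO PNX too. In M3cKO PNX only Tk1 of these was. Rrm2 there was at 608 CPM (509 to 721) in the middle band and 323 (253 to 406) in the last.

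**Figure D4:**
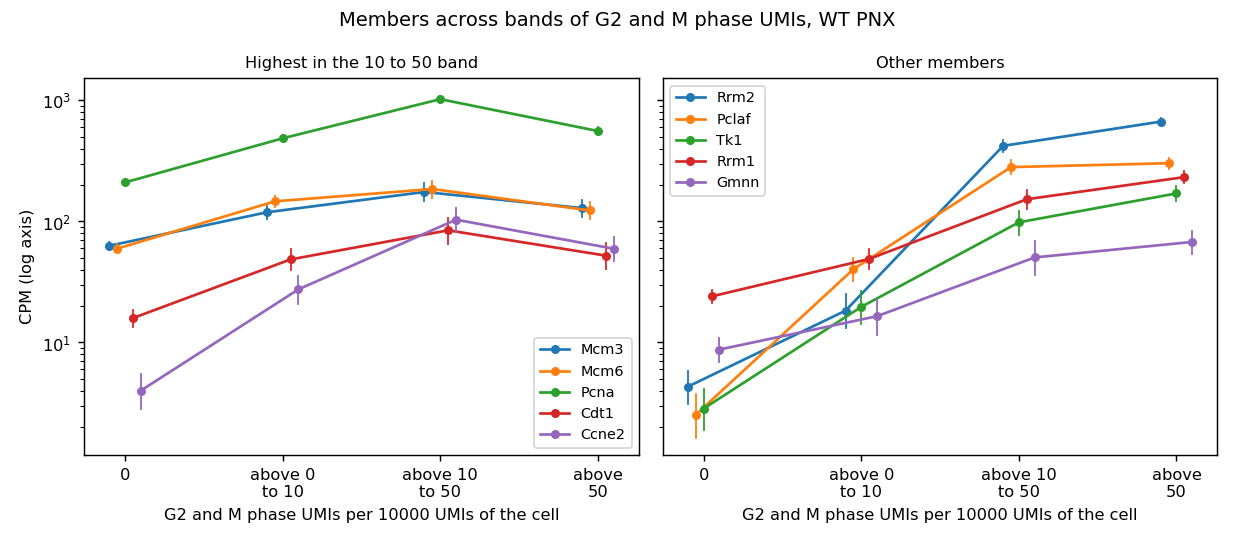
CPM on a log axis of 10 genes in WT PNX endothelial cells, by bands of G2 and M phase UMIs per 10000 UMIs of the cell (x axis); lines at the points are exact Poisson 95% intervals. Genes on the left, such as Pcna, are highest in the band above 10 to 50, and genes on the right, such as Rrm2, in the band above 50.

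In M3cKO PNX most replication genes were lower than in WT PNX. Of 29 measured genes 23 were lower by 1.5-fold or more and 0 higher, against 14.4% lower and 6.37% higher of all 9089 genes, with a median log2 ratio of −0.89 against −0.14. The sum was 1.69-fold (1.64 to 1.74) lower. All 6 helicase genes were lower, Mcm6 by 1.701-fold (1.505 to 1.93), Mcm3 by 1.57-fold (1.39 to 1.77), Mcm5 by 1.86-fold (1.59 to 2.18) and Mcm4, the widest of the 6, by 2.29-fold (1.86 to 2.84). Of the loading and activation genes Gmnn was 3.101-fold (2.19 to 4.51) lower, Cdt1 2.04-fold (1.62 to 2.601) and Cdc45 2.104-fold (1.53 to 2.94). All 6 nucleotide supply genes were lower, led by Dut at 2.89-fold (2.36 to 3.56) and Rrm2 at 2.501-fold (2.17 to 2.89), and with Rrm1 at 1.53-fold (1.32 to 1.79) and Dtymk at 1.697-fold (1.45 to 1.99). At the fork 5 of 10 were lower, among them Rfc4 at 3.34-fold (2.08 to 5.64), Pclaf at 2.52-fold (2.09 to 3.05) and Lig1 at 1.66-fold (1.41 to 1.95). The other 5, Pcna, Rfc2, Pold3, Rpa2 and Fen1, stayed within 1.5-fold, as did Slbp: Pcna was 1.42-fold (1.34 to 1.51) lower, Slbp 1.24-fold (1.09 to 1.402), Fen1 1.11-fold (0.926 to 1.33) and Pold3 1.07-fold (0.911 to 1.27), and for the last pair the interval spans equality. Ccne2 was 3.64-fold (2.52 to 5.397), Hells 3.59-fold (2.597 to 5.08) and Uhrf1 2.11-fold (1.63 to 2.76) lower. Among other replication genes 23 of 46 were lower and 0 higher (median log2 ratio −0.59), those with most UMIs being Usp1, Rfc1, Rpa1, Atad2, Rbl1 and Rfc3.

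The G2 and M phase sum was 2.36-fold (2.27 to 2.45) lower in M3cKO PNX. Within cells with 0 G2 and M phase UMIs 10 of 20 measured replication genes were lower (14.1% of all genes), Mcm2, Mcm4, Mcm5, Mcm6, Mcm7, Cdt1, Dtymk, Dut, Prim1 and Hells, and within cycling cells 7 of 34 (17.3% of all genes), Cdc6, Gmnn, Dut, Rfc4, Hells, Ung and Ccne2. The count within cycling cells thus lay near the share of all genes. Some of the 7 rest on few UMIs: cycling M3cKO PNX cells held 2 of Ung, 8 of Rfc4 and 12 of Cdc6. Without cells of clusters led by other cell types 24 of 30 were lower (14.4% of all genes). With a limit of 5% mitochondrial UMIs, which kept 816 cells in WT PNX and 607 in M3cKO PNX, 9 of 27 were lower and 1 higher (19.0% and 8.75% of all genes), and Mcm5 turned to 1.18 times its WT PNX level. The libraries also differ in the sex of their cells, as given above. In cells with Y-linked UMIs and no Xist the sum was 1697 CPM in WT PNX, 1329 in Foxo1cKO PNX, 970.2 in M3cKO PNX and 538 in sham, and 26 of 32 genes were lower in M3cKO PNX than in WT PNX (15.8% of all genes). In cells with Xist but no Y-linked transcript it was 1360.5 CPM in Foxo1cKO PNX against 1328 in WT PNX.

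In Foxo1cKO PNX the replication genes were slightly lower than in WT PNX. FOXO1 is a transcription factor that holds endothelial cells in quiescence. Of 29 measured genes 4 were lower by 1.5-fold or more and 0 higher, against 1.39% lower and 1.09% higher of all 9052 genes. The 4 were Rrm2, 2.08-fold (1.87 to 2.302) lower, Ccne2, 1.95-fold (1.56 to 2.45), Cdc45, 1.795-fold (1.42 to 2.29), and Pclaf, 1.65-fold (1.46 to 1.88). The other 25 stayed within 1.5-fold, and all 29 had a ratio below 1, with a median log2 ratio of −0.31 against −0.01 over all genes. The sum was 1.26-fold (1.24 to 1.29) lower. Of the 6 role groups the helicase sum was nearest to WT PNX, 1.14-fold (1.09 to 1.18) lower: Mcm5 was 1.08-fold (0.971 to 1.196), an interval that spans equality, Mcm3 1.13-fold (1.03 to 1.23) and Mcm6 1.16-fold (1.06 to 1.27) lower. Rfc2 and Uhrf1 differed by 1.01-fold (0.888 to 1.16) and 1.02-fold (0.869 to 1.21), with intervals that span equality, and Pcna was 1.32-fold (1.26 to 1.38) lower. Ung, under 10 CPM in both libraries, was 1.43-fold (1.07 to 1.896) higher in Foxo1cKO PNX. Among other replication genes 5 of 46 were lower, Atad2, Asf1b, E2f8, Clspn and Wdhd1, and 0 higher. The G2 and M phase sum was 1.61-fold (1.57 to 1.65) lower. Within cells with 0 G2 and M phase UMIs 0 of 20 replication genes were lower (1.1% of all genes), and within cycling cells 0 of 34 were lower and 0 higher (4.53% and 5.82% of all genes). In cells with Y-linked UMIs and no Xist 8 of 33 were lower and 1 higher (4.02% and 5.09% of all genes), and after thinning to 2000 UMIs 9 of 29 were lower (1.82%). The cells with Y-linked UMIs had medians of 3400.5 UMIs in Foxo1cKO PNX and 4141 in WT PNX. In cells with Xist but no Y-linked transcript (932 and 938 cells) the sum was 1360.5 CPM (1323 to 1399) in Foxo1cKO PNX. In those of WT PNX it was 1328 CPM (1289 to 1367), so a lower sum was not seen in such cells. With a limit of 5% mitochondrial UMIs 2 of 28 were lower and 1 higher (5.14% and 5.56%), and Mcm5 stood at 1.52, Cdt1 at 1.45, Hells at 1.26 and Mcm6 at 1.25 times the WT PNX level, the reverse of their direction in all cells.

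Both knockout comparisons use the same WT PNX library, so their ratios are not independent. Set against sham instead, 14 of 24 measured genes were higher in M3cKO PNX (7.96% of all genes) and 0 lower (11.6%), and 23 of 26 higher in Foxo1cKO PNX (10.4%) and 0 lower (6.97%). In M3cKO PNX Mcm3, Mcm4, Mcm7, Rrm1, Dtymk, Dut, Rfc2, Prim1, Pold3 and Rpa2 were within 1.5-fold of sham. The median log2 ratio to sham was 0.63 in M3cKO PNX and 1.34 in Foxo1cKO PNX. M3cKO PNX lay below sham for Rfc2 and Rfc4 and above it for the other 32.

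The endothelial cells were clustered with the 34 genes and other cell cycle genes left out, and the clusters were named from marker lists. Every named class had more replication gene UMIs in WT PNX than in sham. Aerocyte-like cells, the Car4-high capillary cells of gas exchange, were at 995 CPM in WT PNX, 716 in Foxo1cKO PNX, 613 in M3cKO PNX and 495 in sham, from 674, 736, 252 and 815 cells. WT PNX was 2.01-fold (1.88 to 2.15) higher than sham. They came from 2 clusters, 1 of them led also by the haemoglobin genes Hbb-bs and Hba-a1 and with a median of 5124 UMIs a cell against 2720.0 in the other. In that cluster the sum was 1333, 836, 812 and 515 CPM in the same order of libraries (247, 312, 58 and 167 cells), and in the other 615, 537, 502 and 485 CPM (427, 424, 194 and 648 cells). General capillary-like cells, which act as progenitors in capillary repair, were at 1181 CPM in WT PNX, 979.6 in Foxo1cKO PNX, 699.8 in M3cKO PNX and 467 in sham, from 712, 673, 375 and 975 cells, 2.53-fold (2.34 to 2.74) higher in WT PNX than in sham. They also came from 2 clusters. In the first, 380, 353, 323 and 912 cells were at 1091, 907, 689.9 and 469 CPM. It was led by Ntrk2, with H2-Eb1 and Cd74 also among its leading genes. Its name rests on Sema3c, Glp1r and Aplnr, against 2 arterial markers. In the second, 332, 320, 52 and 63 cells were at 1368, 1119, 828 and 421 CPM. The second held mostly cells of WT PNX and Foxo1cKO PNX, with a median of 1470 UMIs a cell. Its leading genes included Xist and Malat1 and the cell cycle genes Top2a, Ccna2 and Mki67. Arterial-like cells were at 1276 CPM in WT PNX, 1318 in Foxo1cKO PNX, 335 in M3cKO PNX and 454 in sham (182, 225, 34 and 128 cells), and venous-like cells at 1442 CPM in WT PNX, 1049.8 in Foxo1cKO PNX, 795 in M3cKO PNX and 566 in sham (472, 478, 247 and 393 cells). In arterial-like cells M3cKO PNX was 3.81-fold (2.69 to 5.56) lower than WT PNX, from 33 UMIs of these genes. Lymphatic-like cells were at 1978 CPM in WT PNX, 1971 in Foxo1cKO PNX, 2213 in M3cKO PNX and 582 in sham (71, 70, 38 and 164 cells), the 1 named class in which M3cKO PNX was not below WT PNX, with a ratio of 1.12-fold (0.987 to 1.27) whose interval spans equality.

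The other clusters stayed unnamed by the marker rule. It asks for 3 or more markers of 1 class, with no other class ahead of it among the leading 10 genes. The clusters led by Prnd, by Rsad2 and by Atf3 had fewer than 3 markers of any class. The one led by Prnd, Rgcc, Fscn1 and Mcm5 was at 2695 CPM in WT PNX, 2620.4 in Foxo1cKO PNX, 1383 in M3cKO PNX and 612 in sham (398, 334, 304 and 271 cells), the highest class sum in WT PNX and in Foxo1cKO PNX, with 48.2% of its WT PNX cells at 4 or more replication gene UMIs. Mcm5 and Rrm2, which had no part in the clustering, were among its leading genes. The one led by Esm1, Lpl, Hey1 and Dll4 was at 2235 CPM in WT PNX, 1226 in Foxo1cKO PNX, 640.3 in M3cKO PNX and 551 in sham (410, 402, 562 and 948 cells), 3.49-fold (3.19 to 3.83) below WT PNX in M3cKO PNX and 1.82-fold (1.69 to 1.97) below it in Foxo1cKO PNX. Clusters led by the interferon-induced genes Rsad2, Ifit3 and Ifit1 and by the stress and early response genes Atf3, Hspa1a, Socs3 and Egr1 were 2.24-fold (1.81 to 2.78) and 2.26-fold (2.07 to 2.46) higher in WT PNX than in sham; the one led by Fabp4, Igfbp3 and C1qtnf9 1.17-fold (0.948 to 1.46), with an interval that spans equality and 10 to 135 cells a library. In that last cluster M3cKO PNX stood 1.44-fold (1.04 to 1.95) above WT PNX, from 10 cells, and in the interferon-gene cluster Foxo1cKO PNX stood 1.23-fold (1.05 to 1.43) above WT PNX. With class shares weighted to those of WT PNX, 28 genes stood above sham in WT PNX, 23 below WT PNX in M3cKO PNX and 4 below it in Foxo1cKO PNX, the counts found without weights (10.3%, 14.2% and 1.2% of all genes). Which cells fell into which capillary cluster depended on the numerical precision of the clustering, so sums by class are less certain than sums over all endothelial cells.

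**Figure D5:**
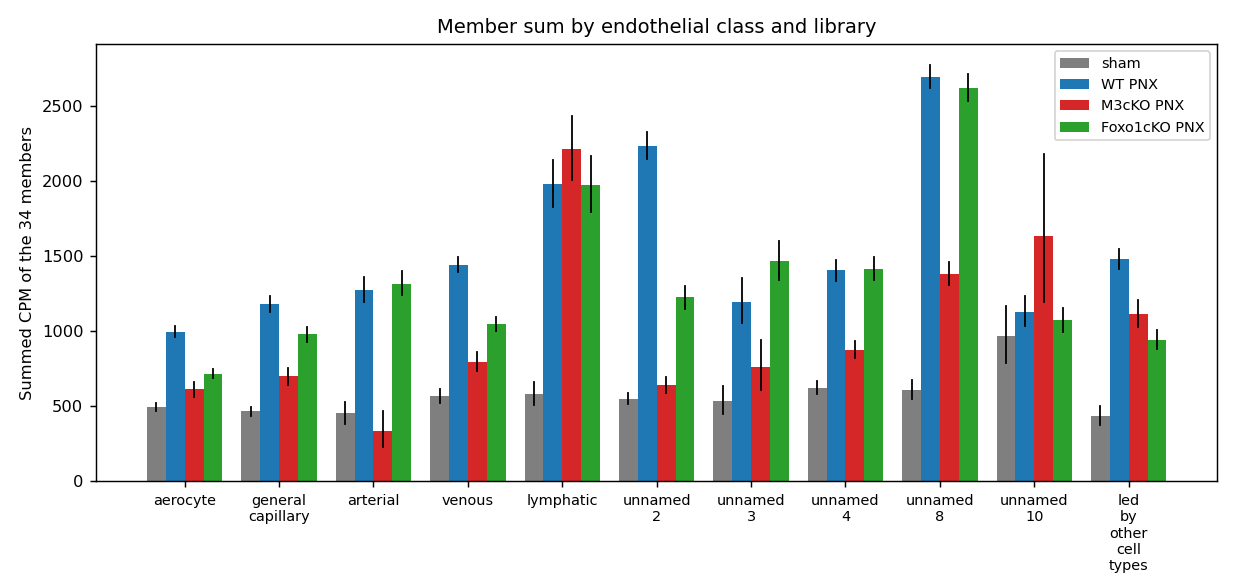
Summed CPM of the 34 genes (y axis) by endothelial class and library; lines are exact Poisson 95% intervals, unnamed clusters carry their number, and the last class pools clusters led by genes of other cell types. WT PNX (blue) stands above sham (grey) in every class, and unnamed cluster 8, led by Prnd, Rgcc, Fscn1 and Mcm5, has the highest WT PNX bar.

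Blood cells that remained after the CD45 depletion gave a second set of dividing cells in the same libraries. They were taken as cells with Ptprc, which encodes CD45, under 2 UMIs of the 6 endothelial genes and none of Epcam, Col1a1 and Col1a2. Cycling cells were 3 of 156 in sham (1.92%, interval 0.398 to 5.52), 20 of 996 in WT PNX (2.01%, interval 1.23 to 3.08), 91 of 1651 in M3cKO PNX (5.51%, interval 4.46 to 6.72) and 32 of 1267 in Foxo1cKO PNX (2.53%, interval 1.73 to 3.55). The share was highest in M3cKO PNX, the PNX library with the lowest share of cycling endothelial cells. In cycling blood cells the 34 genes summed to 4965 CPM in WT PNX, 5940.5 in Foxo1cKO PNX, 4482 in M3cKO PNX and 8373 in sham, from 3 to 91 cells, and in blood cells with 0 G2 and M phase UMIs to 894, 868, 883 and 677 CPM. In M3cKO PNX, which had most of them, Pcna was at 977 CPM in cycling blood cells and 325 in the others, Rrm2 at 324 and 6.88, and Pclaf at 397 and 0.666. In the smaller WT PNX set Rrm2 was at 240.4 and 5.05 CPM, from 20 and 10 UMIs, and Pclaf at 517 and 1.01 CPM. Of the 91 cycling blood cells of M3cKO PNX 32 lay in an unnamed cluster led by Il17f, Hlf, Il17a and Ccr4, 14 in the macrophage-like cluster and 10 in an unnamed cluster led by Foxp3 and Ikzf2.

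B cell-like cells with 0 G2 and M phase UMIs carried Cdt1 without several other replication genes. Their sum was 1082 CPM in WT PNX (312 cells), where Cdt1 was at 149 CPM, Rfc2 at 101, Slbp at 105 and Pcna at 219, and Pclaf, Cdc6 and Ccne2 had 0 UMIs. These genes were chosen after their values were seen. Over all 903 WT PNX blood cells with 0 G2 and M phase UMIs, Cdc6 and Ccne2 had 1 UMI each and Pclaf 2. The lack of these 3 was thus not particular to B cell-like cells. Cdt1 was at 73.3 CPM over all those blood cells. In the B cell-like cells Cdt1 was at 170.5 CPM in sham, 166 in M3cKO PNX and 142 in Foxo1cKO PNX.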

How the data were processed

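The authors deposited raw counts, as UMIs per gene and cell barcode, in 1 matrix per library, with 0 rows that name no gene. Per the labels' protocols they were made with Cell Ranger 2.1.1 against mm10. The matrix headers give a software version of 3.0.0, and the submitters' processing notes name Cell Ranger and R 3.4.4. The annotation is not given in the sources used here. Coordinates are those of GENCODE M21 on the same build, and promoter windows those of RefSeq.

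Filters and gates are given with the results. No doublet caller was used for the values reported, and Scrublet was an alternative that removed 687 barcodes in WT PNX, 608 in Foxo1cKO PNX, 660 in M3cKO PNX and 464 in sham. UMIs were summed per library, and levels are CPM with exact Poisson intervals, ratios with exact conditional binomial intervals and shares with Clopper-Pearson intervals, all at 95%. UMIs of 1 library are not replicates, so intervals cover counting error only and no p-value is given. The floor for a gene at 0 is 3 UMIs per library. The call rule was tested on simulated data.

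Endothelial cells were clustered with Python 3.11.15 and scanpy 1.11.5 on 2000 variable genes, 40 principal components, 20 neighbours and Leiden resolution 1, with 100 genes most correlated with the cell cycle left out. A cluster was named if 3 or more markers of 1 class, and more than of any other, were among its leading 50 genes, and if no other class had more markers than that one among its leading 10. Cycling was not used as a class name, a choice made after seeing the data. TMM factors came from edgeR 4.0.16.

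The 34 genes, the lists and the alternatives were chosen with earlier results of these data known. In each role group the 3 genes with most endothelial UMIs were given in every library. Of the others, those against the direction of most or within 1.5-fold were named where they were 5 or fewer, and further genes, Pclaf, Tk1, Cdc6, Cdc45 and the rest, were named after their values were seen. Of the other replication genes, up to 6 called ones with most UMIs were named.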

Additional observations from a re-analysis of the deposited data

Results flagged for a closer look

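Barcodes that met the endothelial gate but exceeded the limit of 10% mitochondrial UMIs were not used in the comparisons, and they also carried the 34 replication genes above the level of the control library. The summed level in them was 1543.94 CPM in WT PNX (676 cells), 1281.51 CPM in Foxo1cKO PNX (552 cells), 849.138 CPM in M3cKO PNX (516 cells) and 475 CPM in sham (908 cells). The order of the libraries was the one seen in the cells that were used.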

How the results depend on the processing

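No paired analysis was possible because each group has 1 library, and for the same reason no library could be left out. Counts are given as WT PNX above sham, M3cKO PNX below WT PNX and Foxo1cKO PNX below WT PNX, 28, 23 and 4 of the 34 genes as reported. Counts changed by more than 1.5 times were 9, 7 and 2 at a minimum of 50 CPM, which leaves fewer genes measured, and 12, 10 and 0 in cells with 0 G2 and M phase UMIs. At a fold of 2 the last pair were 13 and 1, and at most 5% mitochondrial UMIs 9 and 2, the cause of the latter not tested. Shares of all genes were not computed at a minimum of 50 CPM or at a fold of 2. Whether those counts exceed the share of all genes is thus not known. The Foxo1cKO PNX count was 8 in male-type cells and 9 after thinning. Among values of single genes under the alternatives, 471 kept within the spread of counting error, 110 moved beyond it and 1 gene called at 1.5-fold turned: Mcm5 in M3cKO PNX was at 1.18 times its WT PNX level at most 5% mitochondrial UMIs. Counting genes not called as well, 36 values lay on the other side of a ratio of 1, 28 of them Foxo1cKO PNX against WT PNX and 13 of them at most 5% mitochondrial UMIs. Of the counts, shares and blood values, 54 held and 47 moved. Shares of cells with 2 or more UMIs of the 34 genes, given as sham, then WT PNX, then M3cKO PNX, then Foxo1cKO PNX, were 26.2%, 42.9%, 31.0% and 36.4% at most 5% mitochondrial UMIs, 38.9%, 61.8%, 51.8% and 57.0% at 1000 genes a cell, 35.0%, 68.9%, 47.4% and 56.4% in male-type cells, and 25.9%, 45.7%, 36.6% and 39.2% after thinning. They were 59.2%, 78.9%, 64.3% and 74.3% for 1 or more UMIs, 5.64%, 28.2%, 13.2% and 22.7% for 4 or more, and, chosen after seeing the data, 19.1%, 43.8%, 25.5% and 38.5% without Pcna. WT PNX was highest and sham lowest in each. With 3 G2 and M phase UMIs the 34 genes in cycling blood cells were at 6996 CPM in WT PNX, 6322 in Foxo1cKO PNX and 5157 in M3cKO PNX, and 3.88% of M3cKO PNX blood cells cycled. After thinning the levels were 5000.0, 3692, 5767 and 5227 CPM, listed from sham to Foxo1cKO PNX as the shares were. Sham blood, with 3 cycling cells, and classes under 50 cells are limited by depth.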
